A study of Homo sapiens with 4 samples.

Results

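The genes described are 6 inhibitors and feedback regulators of NF-κB signalling: NFKBIA, NFKBIE, NFKBIZ, TNFAIP3, TNIP1 and ZC3H12A. They were found by their symbols in the deposited feature table, which holds 36602 genes, and all 6 were present. They were measured in OVCAR5, an established human ovarian carcinoma cell line, after exposure to medium conditioned by a coculture of tumor cells and T cells. Per the labels there were 24 conditions, each 1 culture: no supernatant, undiluted supernatant and dilutions of 5, 25, 125 and 625 times, at 2, 6, 12 and 24 h. All cultures went into 1 pool, whose single cells were captured in droplets for sequencing of RNA 3′ ends, and antibody tags (hashtags) marked the culture of each cell.

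NF-κB is a family of dimeric transcription factors that inflammatory cytokines such as TNF and interleukin-1 switch on in epithelial and tumor cells. Inhibitor proteins of the IκB family keep the dimers in the cytoplasm until a kinase marks them for destruction, and several brakes are themselves encoded by NF-κB target genes, so that the pathway renews its own inhibitors. NFKBIA and NFKBIE encode the classical inhibitors IκBα and IκBε. NFKBIZ encodes IκBζ, a nuclear member of the family that acts on a second tier of targets. TNFAIP3 encodes A20, which edits ubiquitin chains on signalling proteins, and TNIP1 encodes its ubiquitin-binding partner ABIN1. ZC3H12A encodes Regnase-1, an enzyme that degrades messenger RNAs of inflammatory genes.

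RefSeq start-site windows, from 250 bases before to 50 after each start on GRCh38.p14, were available for 5 of the 6 genes. They were searched on both strands for the κB consensus, the 10-letter sequence that NF-κB dimers bind, and the stretches holding it are shown because these genes are known as NF-κB targets. Capitals mark the consensus matches, and each stretch reads 5′ to 3′ on the gene's strand.
NFKBIA, chr14:35404801-35404850, minus strand: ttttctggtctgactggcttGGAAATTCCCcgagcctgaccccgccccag
NFKBIZ, first window, chr3:101827747-101827796, plus strand: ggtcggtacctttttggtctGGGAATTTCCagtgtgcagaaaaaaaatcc
NFKBIZ, second window, chr3:101849265-101849294, plus strand: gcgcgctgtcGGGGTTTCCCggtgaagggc
TNFAIP3, chr6:137867188-137867217, plus strand: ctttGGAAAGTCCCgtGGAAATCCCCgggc
TNIP1, second window, chr5:151081057-151081086, minus strand: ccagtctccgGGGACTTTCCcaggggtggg

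The NFKBIA match began 81 bases before the start of its window's transcript, and those of TNFAIP3 lay 67 and 55 bases before theirs. The NFKBIZ matches began 223 and 239 bases before the starts of the first and second windows, and the TNIP1 match 42 bases before the second. By GENCODE 29 the NFKBIA stretch and the first NFKBIZ stretch lie upstream of the gene, and the other 3 overlap an exon of another annotated transcript. The first TNIP1 window and the ZC3H12A window held no consensus match. Of 35116 RefSeq windows of this length, 2075 (5.91%) held at least 1 consensus match. The looser form GGGNNNNNCC, which includes every consensus match, occurred in 58.7% of all windows. ZC3H12A had 4 looser matches, TNFAIP3 4, NFKBIA 1, NFKBIZ 2 and 3, and TNIP1 2 and 7 in their windows. A match is a run of letters, and binding was not measured here.

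RNA molecules were counted as UMIs (unique molecular identifiers). Cells were kept from 1000 detected genes upward, with no more than 20% of UMIs mitochondrial. A cell was given the pair of its 2 strongest tags if the weaker one exceeded the remaining tags by a factor of 3 or more. The cells of a tag pair form a hashtag sample (HTO2/HTO10, for example), and there were 24. Samples had 137 to 272 cells, 5298 in all, and between 1863154 and 3904112 UMIs. Levels are CPM, the sum over a sample's cells in each 1e6 UMIs, and 3 counts corresponded to 0.768 to 1.61 CPM. Which culture a tag pair marks is not given in the sources used here. Dose and time courses can therefore not be read from these data, nor which genes responded fast and briefly or slowly and lastingly, and no conditions were compared. Intervals are 95% intervals for counting error only, since each condition was 1 culture and no replicate spread exists.

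Epithelial markers fitted the labelled cell type in part. The summed level of 8 epithelial markers was 1833 to 3646 CPM, mostly keratins. MUC16 (4 UMIs in all), CDH1 (at most 5.33 CPM) and PAX8 (at most 6.38 CPM) were nearly absent. The T cell markers CD2, CD3E, CD3G and PTPRC had 0 UMIs, and all 8 T cell markers together had at most 6.98 CPM. Myeloid markers summed to 21.5 to 56.9 CPM, most of it CD68, with TYROBP at 0 UMIs. Fibroblast markers reached at most 1.59 CPM, with COL1A2, DCN and LUM at 0 UMIs. HTO3/HTO9 stood apart technically: its cells were the shallowest, at a median of 9389 UMIs, and the richest in mitochondrial UMIs, at a median of 13.8%.

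The 6 genes had wide ranges over the 24 samples, and they did not peak in the same ones. A gene's range is the fold between its highest and lowest sample on the log2(CPM + 10) scale, which understates the change of low genes. All 6 had a mean of at least 20 CPM, though ZC3H12A lay at that minimum (20.001 CPM), and all 6 ranged by 4-fold or more. ZC3H12A, with a median of 10.4 CPM, passed the mean only through its high samples, so the filter favoured its wide range. Among all 5767 genes with that mean, 238 ranged by 4-fold or more, which is 4.13%. The median range on the log2 scale was 3.23 for the 6 genes and 0.744 for all genes tested. Without HTO9/HTO10 the range of NFKBIE was 3.28-fold, and leaving out any one of 9 samples took the mean of ZC3H12A below the minimum, to as little as 17.5 CPM. Levels of different genes are not set against each other below, since 3′ UMI counts are not scaled to a gene's capture.

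**Figure D1:**
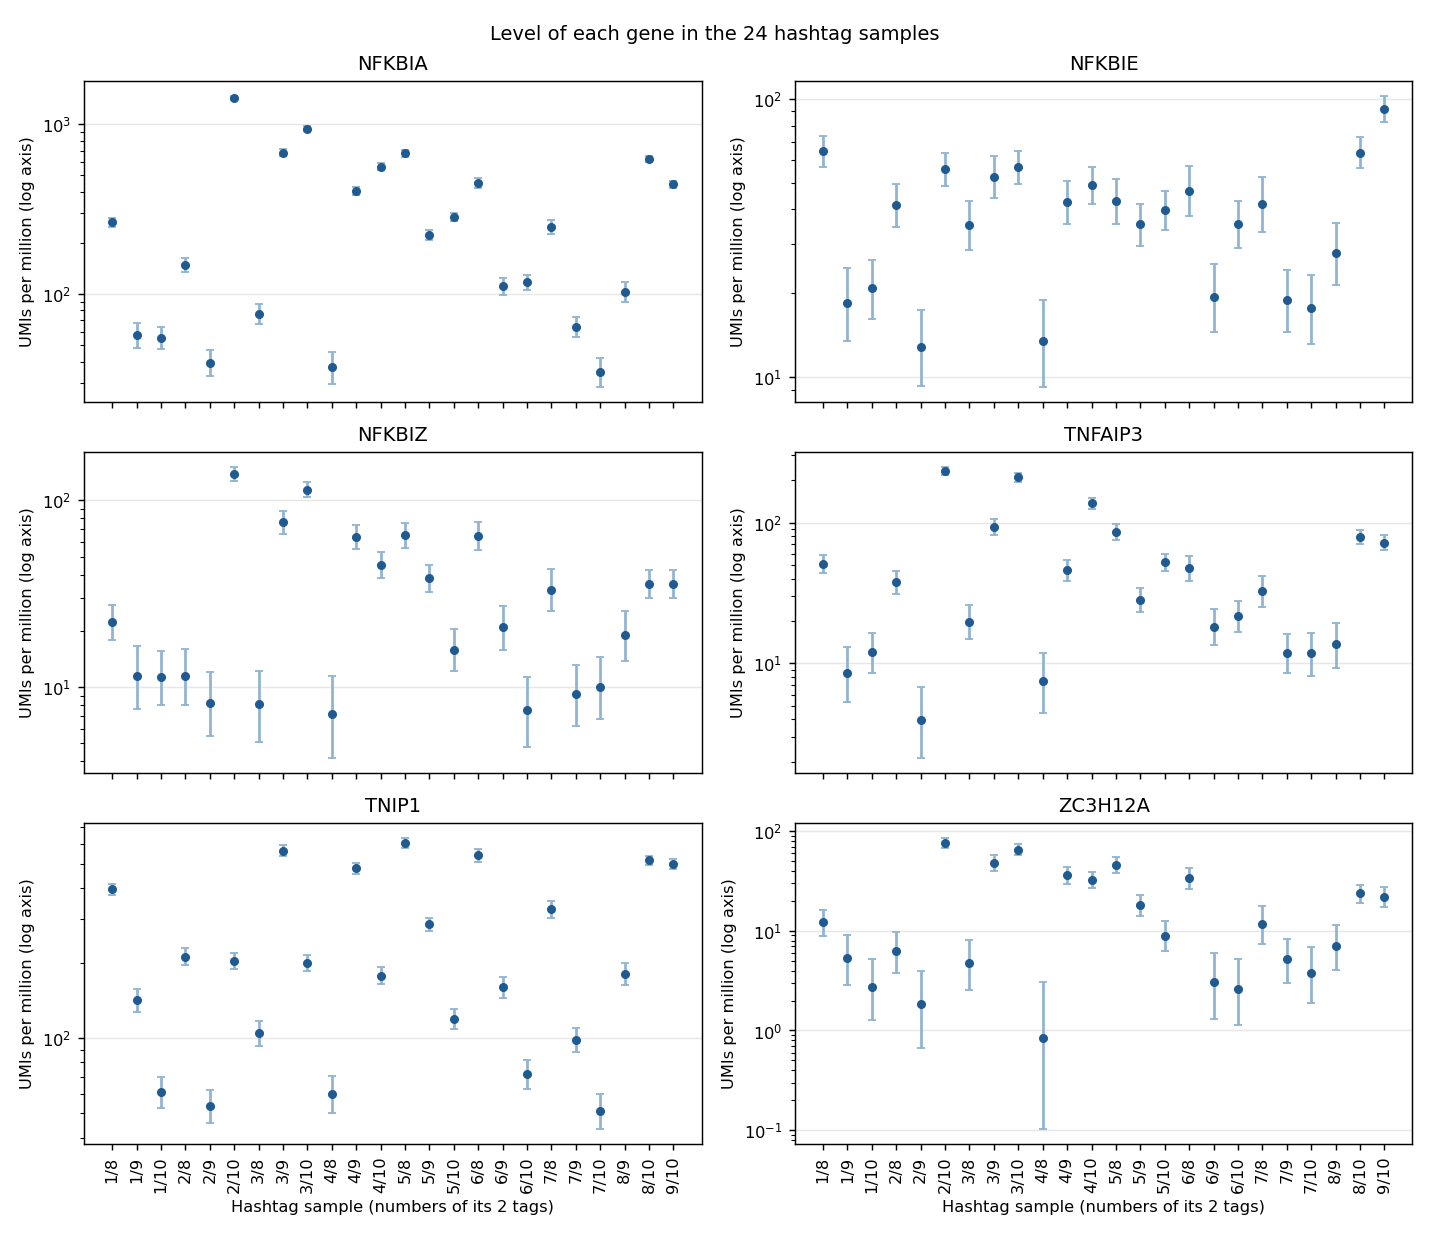
Level of each of the 6 genes in every hashtag sample, in CPM on a log axis. Points are sample values and bars are exact Poisson 95% intervals. NFKBIA, NFKBIZ, TNFAIP3 and ZC3H12A are highest in HTO2/HTO10, TNIP1 in HTO5/HTO8 and NFKBIE in HTO9/HTO10.

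Among the classical inhibitors, NFKBIA (ENSG00000100906, chromosome 14, 35401511 to 35404749 on the minus strand) had the widest range of the 6 at the pseudocount of 10 CPM and at 50 CPM (17.5-fold). At 1 CPM its 40.2-fold range came after TNFAIP3 (47.01-fold) and ZC3H12A (42.1-fold). It ran from 34.7 CPM in HTO7/HTO10 (100 UMIs) through a median of 236 CPM to 1435 CPM in HTO2/HTO10 (5268 UMIs), a ratio of 41.3 (33.9 to 50.9). The second sample, HTO3/HTO10, had 940 CPM, so that HTO2/HTO10 stood 1.53 times above it (1.46 to 1.59). Without HTO2/HTO10 the ratio was 27.1. These were the only 2 samples at or above 50% of the maximum, followed by HTO3/HTO9 with 680 CPM, HTO5/HTO8 with 675 CPM and HTO8/HTO10 with 622 CPM. Along the ranked samples, 12 of 23 neighbouring pairs could not be told apart by their counting intervals. At the bottom, HTO4/HTO8 (37.0 CPM) and HTO2/HTO9 (39.5 CPM) lay next to HTO7/HTO10.

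NFKBIE (ENSG00000146232, chromosome 6, 44258166 to 44265788 on the minus strand) moved least. It ran from 12.9 CPM in HTO2/HTO9 (42 UMIs) through a median of 40.6 CPM to 92.1 CPM in HTO9/HTO10 (332 UMIs), a ratio of 7.16 (5.19 to 10.1). HTO9/HTO10 was 1.42 times its next sample, HTO1/HTO8 with 64.9 CPM (1.202 to 1.68), and HTO8/HTO10 followed with 64.0 CPM. The order between these top samples and the rest was shallow: 22 of 23 neighbouring pairs were not apart, 8 samples reached 50% of the maximum, and all 24 reached 10%. In HTO2/HTO10, where NFKBIA peaked, NFKBIE had 55.8 CPM, 60.6% of its own maximum.

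NFKBIZ (ENSG00000144802, chromosome 3, 101827991 to 101861022 on the plus strand), the nuclear IκB, had a low level in most samples. It ran from 7.14 CPM in HTO4/HTO8 (17 UMIs) through a median of 21.6 CPM to 139 CPM in HTO2/HTO10 (509 UMIs), a ratio of 19.4 (12.0 to 33.6). HTO3/HTO10 (114 CPM) and HTO3/HTO9 (76.0 CPM) came next, and these 3 samples were the ones at or above 50% of the maximum. Between HTO2/HTO10 and HTO3/HTO10 the ratio was 1.22 (1.07 to 1.38), and 19 of 23 neighbouring pairs were not apart.

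TNFAIP3 (ENSG00000118503, chromosome 6, 137867188 to 137883312 on the plus strand), the A20 gene, came second after NFKBIA at the pseudocount of 10 CPM, first at 1 CPM, and after TNIP1 at 50 CPM, where it had 5.25-fold against 6.50-fold for TNIP1. It ran from 3.98 CPM in HTO2/HTO9 (13 UMIs) through a median of 35.3 CPM to 233 CPM in HTO2/HTO10 (856 UMIs), a ratio of 58.6 (34.1 to 110), or 30.8 without HTO2/HTO9. HTO3/HTO10 followed with 209 CPM and HTO4/HTO10 with 137 CPM, and no other sample reached 50% of the maximum. The step between its highest samples was small, at 1.11 (1.01 to 1.23). The antisense gene WAKMAR2 overlaps an exon of TNFAIP3, and whether the counting used strand is not given in the sources used here. WAKMAR2 had 187 UMIs over all barcodes, against 4438 UMIs of TNFAIP3 in the hashtag samples.

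TNIP1 (ENSG00000145901, chromosome 5, 151029945 to 151093577 on the minus strand), the gene of the A20 partner, had another profile. It ran from 51.1 CPM in HTO7/HTO10 (147 UMIs) through a median of 191 CPM to 606 CPM in HTO5/HTO8 (1624 UMIs), a ratio of 11.9 (10.0 to 14.2). HTO3/HTO9 (565 CPM) and HTO6/HTO8 (542 CPM) were next, and the ratio of HTO5/HTO8 to HTO3/HTO9 was 1.07 (0.999 to 1.15). A plateau of 8 samples lay at or above 50% of the maximum, and 21 of 24 reached 10%. HTO2/HTO10 and HTO3/HTO10, the top samples of NFKBIA, NFKBIZ, TNFAIP3 and ZC3H12A, had 204 and 201 CPM of TNIP1, 33.6% and 33.1% of its maximum.

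ZC3H12A (ENSG00000163874, chromosome 1, 37474552 to 37484379 on the plus strand), the Regnase-1 gene, rested on the fewest counts. It ran from 0.840 CPM in HTO4/HTO8 (2 UMIs) through a median of 10.4 CPM to 76.5 CPM in HTO2/HTO10 (281 UMIs), a ratio of 91.1 whose interval was wide (25.0 to 756). Without HTO4/HTO8 the ratio was 41.7. HTO3/HTO10 had 65.5 CPM and HTO3/HTO9 48.6 CPM. HTO2/HTO10 and HTO3/HTO10 were not apart, with a ratio of 1.17 (0.982 to 1.39), and 4 samples reached 50% of the maximum.

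**Figure D2:**
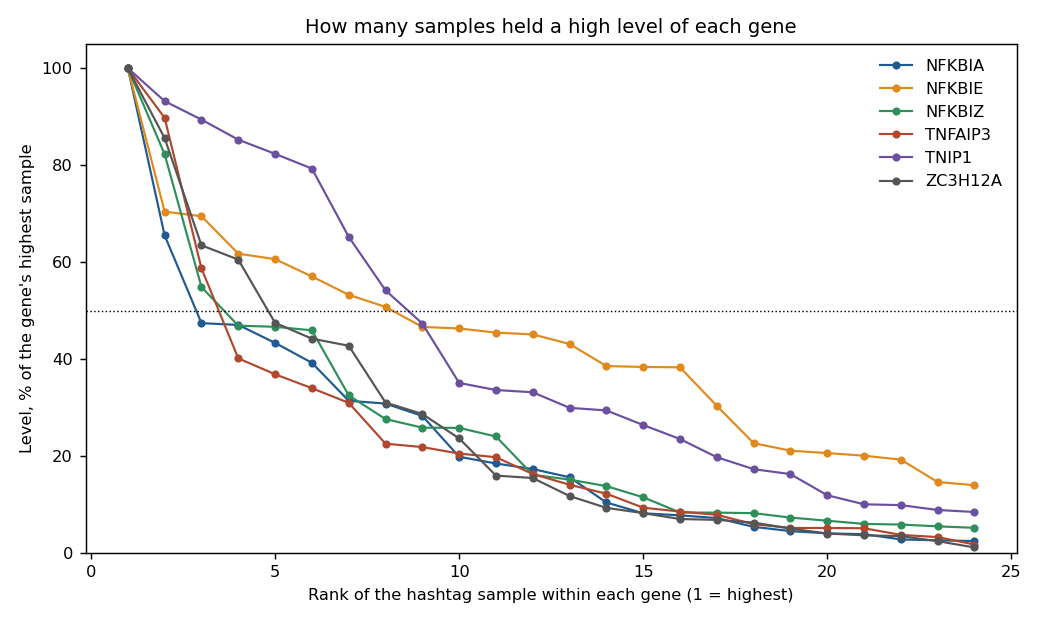
Level of each gene as a percentage of its own highest sample, with the 24 hashtag samples ranked within each gene (rank 1 is highest). The dotted line marks 50%, which 8 samples reach for TNIP1 and NFKBIE, and 2 to 4 samples for NFKBIA, NFKBIZ, TNFAIP3 and ZC3H12A.

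Low samples were largely shared between the genes. HTO4/HTO8 was among the 2 lowest samples of 5 genes and HTO2/HTO9 of 4. HTO2/HTO10, HTO3/HTO10 and HTO3/HTO9 were each among the 3 highest samples of 4 genes. The 6 genes together had 2143 CPM in HTO2/HTO10, their highest sample, and 120 CPM in HTO2/HTO9, their lowest. The ratio was 17.9 (16.1 to 19.8), and 13.2 once HTO2/HTO10 was left out. NFKBIA made up 5268 of the 7867 UMIs in HTO2/HTO10 and 129 of the 392 in HTO2/HTO9, so the summed ratio rests largely on that gene.

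The contrast between TNIP1 and the other genes was seen within samples as a ratio of UMIs, which needs no scaling to the total. NFKBIA had 7.04 UMIs per TNIP1 UMI in HTO2/HTO10 (6.52 to 7.61) and 0.403 in HTO1/HTO9 (0.329 to 0.492), a 17.5-fold difference, with a median of 0.805. Only how this ratio varies between samples can be read, not its size. TNFAIP3 had 1.14 UMIs per TNIP1 UMI in HTO2/HTO10 (1.04 to 1.26) and 0.0605 in HTO1/HTO9 (0.0370 to 0.0940), an 18.9-fold difference. NFKBIE varied less against TNIP1, between 0.493 in HTO6/HTO10 (0.388 to 0.624) and 0.0708 in HTO5/HTO8 (0.0581 to 0.0856).

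**Figure D3:**
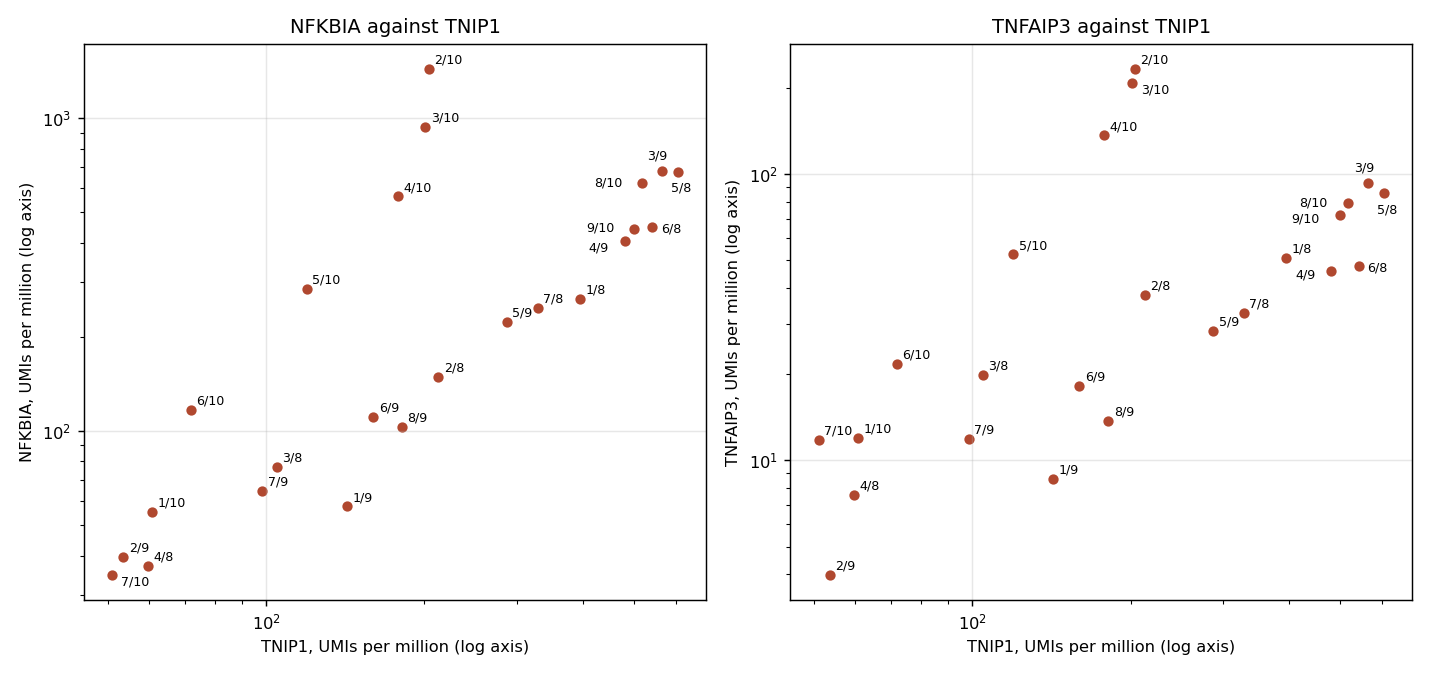
NFKBIA (left) and TNFAIP3 (right) against TNIP1 in the 24 hashtag samples, each point 1 sample labelled by its tag numbers, in CPM on log axes. HTO2/HTO10, HTO3/HTO10 and HTO4/HTO10 have the 3 highest values of TNFAIP3 at a TNIP1 level of 178 to 204 CPM, while HTO5/HTO8 and HTO3/HTO9, with the most TNIP1, have 675 and 680 CPM of NFKBIA, and HTO4/HTO10 has 563 CPM.

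Pairs of samples, chosen after their values were seen, show the profiles side by side. Between HTO2/HTO10 and HTO5/HTO8, NFKBIA had 1435 and 675 CPM, a ratio of 2.13 (2.02 to 2.24), and TNFAIP3 had 233 and 85.9 CPM, a ratio of 2.71 (2.34 to 3.15). TNIP1 went the other way, with 204 and 606 CPM, a ratio of 0.336 (0.308 to 0.367). The chemokine gene CXCL8, a classical NF-κB target, had 774 and 134 CPM in these samples. SOD2, an antioxidant enzyme gene that is also among the NF-κB targets listed below, had 339 and 1445 CPM. Of the other listed targets, CCL20 had 185 and 32.5 CPM and ICAM1 598 and 1251 CPM, so NF-κB targets went both ways. CD74, the MHC class II invariant chain gene that interferon gamma induces, had 19.3 and 684 CPM. Of other interferon gamma genes, CXCL10 had 150 and 3560 CPM, but IRF1 had 1715 and 1480 CPM, a ratio of 1.16 (1.11 to 1.21). Interferon gamma genes therefore went both ways too. HTO2/HTO10 thus held high NFKBIA, TNFAIP3 and CXCL8 with little CD74, and HTO5/HTO8 high TNIP1, SOD2 and CD74. HTO5/HTO8 had a median depth of 10714 UMIs per cell and 12.8% mitochondrial UMIs, and the part of these in the contrast was not tested.

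HTO6/HTO10 and HTO8/HTO9 had like levels of NFKBIA, 117 and 103 CPM, with a ratio of 1.14 whose interval of 0.961 to 1.35 included 1. TNIP1 differed between them, with 72.0 and 181 CPM, a ratio of 0.397 (0.335 to 0.469), and so did NFKBIZ, with 7.56 and 19.1 CPM (0.396, 0.228 to 0.673). TNFAIP3 was on the other side, with 21.7 and 13.7 CPM (1.58, 1.02 to 2.50). HTO9/HTO10 and HTO4/HTO9 had similar TNIP1 (499 and 481 CPM; 1.04, 0.968 to 1.11) but split the 3 IκB genes. NFKBIE had 92.1 and 42.7 CPM there (2.16, 1.76 to 2.67), NFKBIA 442 and 405 CPM (1.09, 1.01 to 1.18) and NFKBIZ 35.8 and 63.6 CPM (0.562, 0.446 to 0.707).

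Likeness between genes was described by Pearson's r of log2(CPM + 10) over the 24 samples, with Spearman's rho beside it. The samples share a pool, doses and times and are not independent, so r carries no p-value. The median over the 15 pairs of the 6 genes was 0.835. NFKBIZ and ZC3H12A were most alike (r = 0.973, rho = 0.954), followed by NFKBIA and TNFAIP3 (r = 0.959, rho = 0.970). In mouse cells Regnase-1 is known to degrade the NFKBIZ messenger. TNFAIP3 and TNIP1, whose proteins work together, were least alike (r = 0.620, rho = 0.708), and r stayed between 0.575 and 0.682 with any 1 sample left out. NFKBIE had r = 0.858 to NFKBIA, 0.772 to TNIP1 and 0.664 to NFKBIZ. NFKBIA itself had r = 0.775 to TNIP1, so NFKBIE was no nearer to TNIP1 than NFKBIA was.

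Outside the 6 genes themselves, the 5 nearest were taken for each from the genes that averaged 20 CPM or more. NFKBIA was nearest to JUNB, an AP-1 transcription factor gene (r = 0.971), the chemokine genes CXCL2 (0.966) and CXCL1 (0.953), the transcription factor gene CEBPD (0.937) and the growth factor gene CSF2 (0.935). Outside the 6 genes, CSF2 was the nearest to ZC3H12A (0.983) and NFKBIZ (0.962), and CXCL2, CXCL3 and JUNB were among the 5 of both; the fifth was MIR155HG (0.939) for ZC3H12A and CXCL1 (0.922) for NFKBIZ. For TNFAIP3 they were TIFA (0.933), an adaptor of TRAF6, the cytokine gene IL1B (0.925), JUNB (0.920), CXCL2 and MIR155HG, the host gene of a microRNA (both 0.916). CSF2 (median 8.76 CPM), MIR155HG (15.7 CPM) and IL1B (19.1 CPM) passed the mean through their high samples. The highest sample of CSF2 and MIR155HG was HTO2/HTO10, where NFKBIA, NFKBIZ, TNFAIP3 and ZC3H12A also peaked, so the filter favoured a high r. CXCL1, CXCL2 and CXCL3 have similar sequences, and how shared reads were assigned is not given in the sources used here.

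NFKBIE and TNIP1 had none of these neighbours. NFKBIE was nearest to RELB (0.958), an NF-κB subunit gene, SOCS3 (0.936), a brake on cytokine receptors, the surface protein gene CD83 (0.935), the subunit gene NFKB1 (0.920) and the growth factor gene CSF1 (0.904). TNIP1 was nearest to SOD2 (0.964), SOCS1 (0.961), a brake on interferon signalling, the subunit gene NFKB2 (0.960), the kinase gene RIPK2 (0.954) and HAPLN3 (0.952). SOCS1 had a median of 18.1 CPM and, like CSF2, passed the mean through its high samples.

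**Figure D4:**
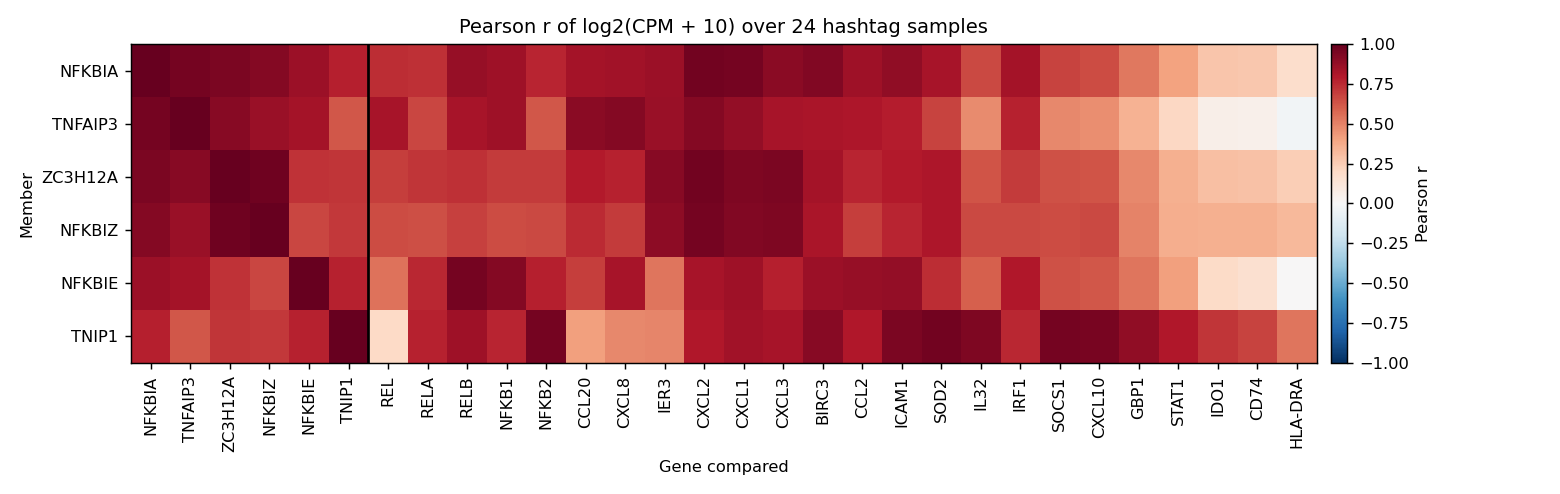
Pearson r of log2(CPM + 10) over the 24 hashtag samples between each of the 6 genes (rows) and the 6 genes and 24 others (columns), coloured by r. The TNIP1 row is pale for REL, CCL20 and CXCL8 and dark for SOD2, SOCS1 and CXCL10, and the TNFAIP3 row has the reverse order.

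Genes of the pathway differed in their likeness to TNIP1 and TNFAIP3. Of the 11 tested NF-κB target genes listed below, r was higher with TNIP1 for 4 and higher with TNFAIP3 for 7, in some by a small margin. Of the 5 subunit genes, 3 were nearer to TNIP1 and 2 to TNFAIP3, and of the 10 interferon gamma genes, 9 and 1. The widest gaps were in genes chosen after their values were seen. With TNIP1, r was 0.200 for the subunit gene REL, 0.411 for the chemokine gene CCL20 and 0.483 for CXCL8, against 0.950 for CXCL10, 0.889 for GBP1 and 0.674 for CD74, which interferon gamma induces. With TNFAIP3 the values were 0.821 for REL, 0.901 for CCL20 and 0.915 for CXCL8, against 0.462 for CXCL10, 0.347 for GBP1 and 0.051 for CD74. Many genes were close to both: BIRC3 had r = 0.913 with TNIP1 and 0.815 with TNFAIP3, CXCL2 0.798 and 0.916, RELB 0.851 and 0.825, and the interferon-induced factor gene IRF1 0.750 and 0.766. The median mitochondrial share of a sample had r = 0.627 with TNIP1, 0.494 with NFKBIZ, 0.461 with ZC3H12A, 0.428 with NFKBIA, 0.225 with TNFAIP3 and 0.178 with NFKBIE. The log2 median depth had r = -0.483 with TNIP1 and between -0.301 and -0.0198 with the others. The part of mitochondrial share and depth in these profiles was not tested.

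Other brakes on the pathway were described in the same way. Of the other IκB proteins and the precursors that hold IκB-like repeats, 4 of 5 passed the mean of 20 CPM and 2 ranged by 4-fold or more: NFKB2 (5.76-fold) and BCL3 (4.78-fold), both above NFKBIE (4.47-fold). NFKB1 ranged 3.45-fold, and NFKBID, which lay below the mean, did not count. Of the other ubiquitin-based brakes, 6 of 10 passed and 0 reached 4-fold. Of those that passed, TNIP2, a relative of TNIP1, was the widest at 2.15-fold, then TRAF3 (1.89-fold) and TAX1BP1 (1.85-fold). TNIP3 (3.91-fold) and CYLD (3.25-fold) ranged more but lay below the mean and did not count. Of the other RNA decay factors, 5 of 9 passed and 0 reached 4-fold, with ZFP36L1 at 2.87-fold, ZFP36L2 at 2.03-fold and N4BP1 at 1.77-fold. The ubiquitin and RNA decay factors that passed the mean ranged less than TNFAIP3 (17.4-fold) and ZC3H12A (7.98-fold). Among all 5767 genes with that mean, 4.13% ranged by 4-fold or more. The counts of 0 in lists this short therefore do not set these factors apart from other genes.

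The relay that carries the signal was similar, with 12 of 19 genes passing and 1 at 4-fold or more, the receptor gene TNFRSF1B (4.78-fold). The inhibitor of apoptosis gene BIRC2 followed with 3.39-fold and the adaptor gene TRADD with 3.21-fold. All 5 subunit genes passed and 1 reached 4-fold, NFKB2, ahead of RELB (3.82-fold) and REL (3.63-fold). Beside the share of 4.13% among all tested genes, a count of 1 in lists this short does not set the relay or the subunits apart. By contrast, all 11 tested of 14 NF-κB target genes ranged by 4-fold or more, with a median of 28.9-fold and IL32 (71.8-fold), CXCL8 (48.2-fold) and SOD2 (36.4-fold) as the widest. Of 8 genes known to depend on IκBζ, 5 passed and all 5 reached 4-fold, led by the acute-phase genes SAA2 (40.4-fold) and SAA1 (24.3-fold) and the growth factor gene CSF3 (25.2-fold), which had 0 counts in HTO1/HTO9. SAA1 and SAA2 are near-identical, so their split is uncertain. CSF3 (mean 23.9, median 1.80 CPM) and the NF-κB target CCL20 (mean 22.9, median 2.87 CPM) passed the mean only through their high samples. That both ranged by 4-fold or more therefore follows from the filter. All 10 interferon gamma genes reached 4-fold, with CXCL10 (153-fold), IDO1 (141-fold) and CXCL9 (98.8-fold) the widest. Among them, HLA-DRA (mean 44.7, median 6.11 CPM), CXCL9 (mean 125, median 14.6 CPM) and SOCS1 (mean 27.0, median 18.1 CPM) had medians below the minimum. So did CCL2 (mean 33.8, median 16.1 CPM), which is in both the target and the IκBζ list. These genes also passed through their high samples, so the filter favoured their wide ranges. All folds here are on the log2(CPM + 10) scale.

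In single cells, samples differed in the share of cells with a UMI. At sparse counts this share rises with the mean level. It therefore does not separate a higher level in each cell from more cells with RNA. NFKBIA had at least 1 UMI in 99.6% of 241 cells in HTO2/HTO10 (97.7 to 99.99) and in 32.7% of 165 cells in HTO4/HTO8 (25.6 to 40.5). After each cell was thinned to 3000 UMIs, which left out 37 of 5298 cells, the highest share was 95.4% in HTO2/HTO10 (91.9 to 97.7) and the lowest 6.93% in HTO7/HTO10 (3.84 to 11.4). At 6000 UMIs per cell, NFKBIA in the 237 cells of HTO2/HTO10 that were deep enough had a median of 8 UMIs, with 3 at the 10th and 16 at the 90th percentile and 4 cells at 0. Nearly every cell of that sample therefore held NFKBIA RNA at this depth.

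TNIP1 was similarly widespread in HTO5/HTO8, where 79.8% of 233 cells had a UMI after thinning to 3000 (74.1 to 84.8), against 10.2% of 244 cells in HTO2/HTO9 (6.74 to 14.8). At 6000 UMIs, 16 of 228 cells in HTO5/HTO8 had none. TNFAIP3 was seen in 86.3% of cells in HTO2/HTO10 (81.3 to 90.4) at full depth and 43.8% after thinning (37.4 to 50.3), and in HTO2/HTO9 in 4.92% (2.57 to 8.43) and 1.64% (0.448 to 4.14). NFKBIE reached at most 68.8% at full depth and 28.5% after thinning, both in HTO9/HTO10. NFKBIZ reached 72.6% in HTO2/HTO10 at full depth, and 30.5% after thinning in HTO3/HTO10. ZC3H12A had a UMI in 64.7% of cells in HTO2/HTO10 at full depth (58.3 to 70.8) and in 1.21% in HTO4/HTO8 (0.147 to 4.31). The extremes of the shares were not always those of the levels in CPM. At full depth TNIP1 had its highest share in HTO8/HTO10 (98.1%), while its highest level was in HTO5/HTO8. NFKBIA had its lowest share in HTO4/HTO8, while its lowest level was in HTO7/HTO10.

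At 6000 UMIs per cell, differences between samples made up 49.9% of the cell-to-cell variance of NFKBIA, 33.7% of that of TNIP1, 21.2% of that of TNFAIP3, 12.9% of that of NFKBIZ, 10.4% of that of ZC3H12A and 5.80% of that of NFKBIE. Counting noise is part of the remainder. All cells came from 1 line in 1 pool, so no cell type that lacks these genes was there to measure free RNA, and its part in the low shares was not tested. The tag margin takes out barcodes with more than 2 strong tags, which cells of different cultures caught together could carry. How many doublets were left, within or between cultures, was not measured.

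**Figure D5:**
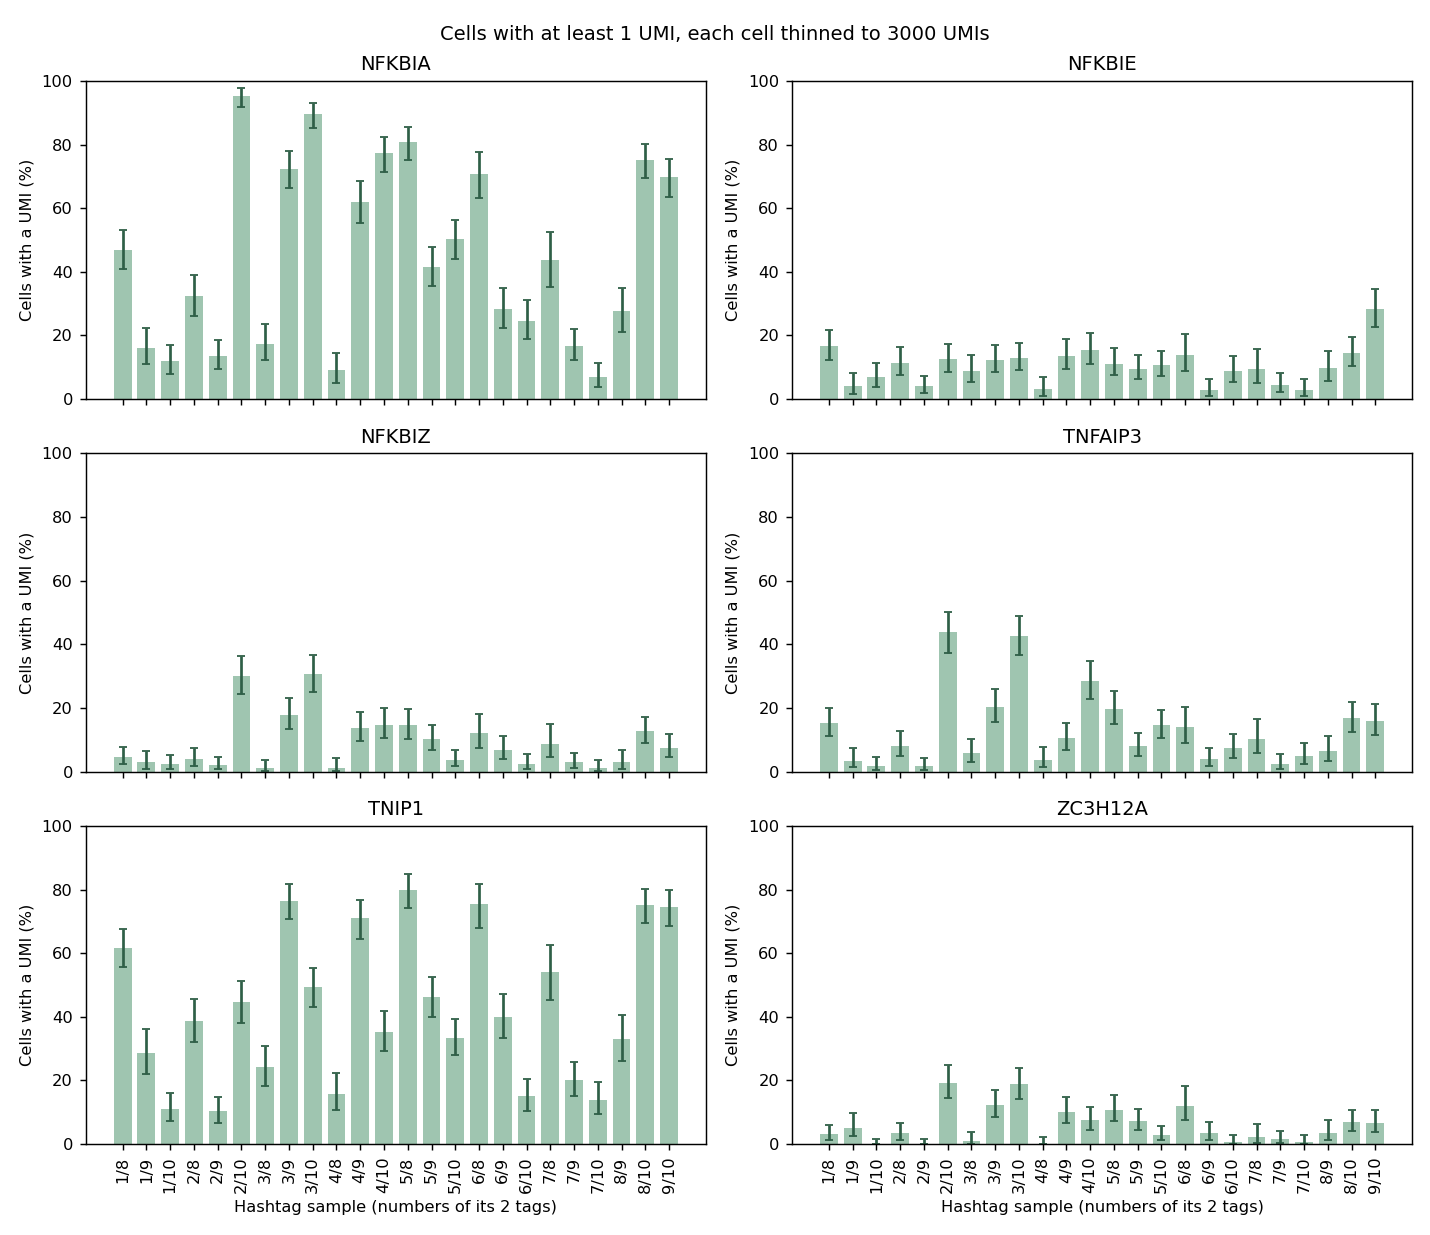
Percentage of cells with at least 1 UMI of each gene in every hashtag sample, after each cell was thinned to 3000 UMIs. Bars are shares and lines exact binomial 95% intervals; NFKBIA reaches 95.4% in HTO2/HTO10 and TNIP1 79.8% in HTO5/HTO8, while ZC3H12A does not exceed 19.2%.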

How the data were processed

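Gene expression and hashtag libraries (2 of each) of 1 pool of OVCAR5 cultures were deposited as 1 matrix of UMI counts for 10660 barcodes. Per the file headers, the authors' counts are output of Cell Ranger 5.0.1. Version 2.1.1 and the build GRCh38 stand in the submitters' processing notes. For the annotation and the cell calling, no settings are stated in the sources used here. Filters kept 6408 barcodes (median 13526 UMIs), of which 82.7% had a tag pair that was the top pair of at least 100 barcodes.

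UMIs were summed per hashtag sample with Python 3.11.15, numpy 2.4.6, pandas 2.3.3 and scipy 1.17.1, and divided by the total to give CPM. Intervals are exact Poisson for counts, conditional binomial for ratios and exact binomial for shares. There are no tests, because no tag pair has a known condition and no condition a second culture. The range calculation was tested on simulated counts. Depth of a sample sets the smallest level seen, as given in the report.

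The 6 genes, the lists and the pseudocount, filters and thresholds were chosen with earlier results of these data known. Named genes are the 6, the 5 nearest to each by r, and the 3 widest-ranging of each list; CXCL8, SOD2, CD74 and the other genes set beside them were chosen after their values were seen. No doublet caller was run. Coordinates are those of GENCODE 29 on GRCh38, and promoter sequences those of RefSeq on GRCh38.p14, with no window for NFKBIE used here. Alternatives changed the pseudocount, cell filters, tag margin, scaling, averaging, mean minimum, KRT81-rich cells, thinning depth and each sample in turn.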

Additional observations from a re-analysis of the deposited data

Results flagged for a closer look

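The report rests on kept cells with a tag pair, and the 6 genes were also seen in barcodes outside them. In the 1110 kept cells without a clear tag pair, which cannot be placed in any condition, the 6 genes summed to 716 CPM (705 to 728), against 771 CPM (765 to 777) over the 5298 cells with a pair. NFKBIA had 325 CPM in the cells without a pair and 359 CPM in those with one. In the 4252 barcodes that the filters removed, with a median of 2172 UMIs and 53.0% mitochondrial UMIs, the genes summed to 398 CPM (387 to 410). Relative to kept cells with a pair, TNIP1 was lower there (102 against 252 CPM) and NFKBIZ was not (39.6 against 37.6 CPM). The total behind CPM includes mitochondrial UMIs, whose median share was 53.0% there and 10.5% in kept cells with a pair. A larger mitochondrial share lowers the CPM of every other gene, and its part in these levels was not tested. No sample of untreated cells is known to set these values against, so they are given as levels.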

How the results depend on the processing

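Counts, shares, ranges and ratios of highest to lowest have a fixed direction, so only their size could move. The median r, which could have changed sign, stayed positive under every alternative. The count of genes ranging by 4-fold or more was 6, and 3 with a pseudocount of 50 CPM, when NFKBIA, TNFAIP3 and TNIP1 remained; all tested genes then gave 82 calls, and 402 with a pseudocount of 1 CPM. It was 5 with a filter of 2000 genes and 10% mitochondrial UMIs and with a tag margin of 2, and 4 to 6 with 1 sample left out. The cause is the construction for the pseudocount and the mean minimum. Under the stricter filter and at a tag margin of 2, all 6 genes still ranged by 4-fold or more. NFKBIE was lowest, at 5.24-fold and 4.27-fold. The gene no longer counted there therefore fell below the mean minimum. With 1 sample left out, ZC3H12A fell below that minimum in some cases, and NFKBIE ranged 3.28-fold without HTO9/HTO10. What moved the levels was not tested. The ratio of the summed level was 20.3 with the stricter cell filter and 13.2 to 17.9 with 1 sample left out, lowest without HTO2/HTO10. The order of the ranges moved with the pseudocount, as the report gives. The median r stayed between 0.754 and 0.863. The number of samples at or above 50% of the maximum for NFKBIA was 4 under median-of-ratios scaling, 5 without HTO2/HTO10 and 1 without HTO3/HTO10. Without HTO2/HTO10 it was 5 for NFKBIZ, and without HTO9/HTO10 it was 15 for NFKBIE. That scaling shifted levels by -0.09 in HTO7/HTO10 to 0.19 in HTO3/HTO9 on the log2 scale. Over all cells, NFKBIA was seen in 74.7% at full depth, 60.7% at 6000 UMIs and 46.99% at 3000 UMIs. Without HTO3/HTO9, 168 genes ranged by 4-fold or more. No paired analysis was possible because no tag pair could be given a condition. Depth limits ZC3H12A most, whose lowest sample had 2 UMIs.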

Other observations

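A few cells rich in KRT81, a hair keratin gene, had lower levels of some of the 6 genes. The 212 kept cells with at least 10 KRT81 UMIs had 177 CPM of NFKBIA (165 to 190), against 360 CPM (356 to 364) in the other 6196 kept cells. TNIP1 had 87.0 CPM (78.5 to 96.2) in them, against 258 CPM (254 to 261), and NFKBIE 15.4 CPM (11.9 to 19.5), against 43.1 CPM (41.7 to 44.5). NFKBIZ had 26.9 CPM (22.2 to 32.2), against 37.2 CPM (35.9 to 38.5). As samples differ in both these genes and KRT81-rich cells, the 128 such cells with a tag pair, in 23 hashtag samples, were also set against the other cells of their own sample, an addition made after seeing the data. They held 0.280 of the UMIs expected from those cells for TNIP1 (0.240 to 0.325), 0.253 for NFKBIE (0.165 to 0.370), 0.567 for NFKBIA (0.514 to 0.623) and 0.682 for TNFAIP3 (0.546 to 0.841). For NFKBIZ (0.803, 0.614 to 1.03) and ZC3H12A (0.717, 0.484 to 1.02) the interval included 1. KRT81-rich cells made up 0 to 4.12% of a hashtag sample. Over all kept cells they were deeper (median 19648 against 13388 UMIs) and had 5.94% mitochondrial UMIs, against 10.5%. The intervals cover counting error only and treat no cell as a replicate, and how these cells spread over conditions is not known.

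From cell to cell within a hashtag sample, at equal depth, the median r over samples was between -0.0231 and 0.112 for the 15 pairs. Single samples reached 0.397 for NFKBIA and TNIP1, 0.388 for NFKBIA and ZC3H12A and 0.354 for NFKBIA and TNFAIP3. At counts this sparse such values are a description and no finding.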
